A study of Mus musculus with 6 samples.

Results

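Neprilysin and its relatives are zinc metallopeptidases of the cell surface, anchored in the membrane with the catalytic part outside the cell. Neprilysin, encoded by Mme, cuts and inactivates short signalling peptides such as enkephalins, substance P, bradykinin and natriuretic peptides. Endothelin-converting enzyme 1, encoded by Ece1, cuts the inactive precursor big endothelin to the active peptide. Ecel1 encodes a relative named for its sequence likeness, which rodent neurons switch on after axon injury and which mouse motor axons need to branch within muscle. In developing rodent nerve neprilysin is carried on the surface of Schwann cells, the glia that make myelin, and loss of the human gene causes an axonal neuropathy.

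The 3 genes are described here as members of the neprilysin family, taken by symbol from 24421 genes counted in each library. They were chosen with the difference between the genotypes already known, so their values in that comparison are a description and carry no test. RNA-seq libraries were made from total RNA of mouse sciatic nerve, with the library as the unit of the comparison. Of these, 3 were labelled as conditional knockout (cKO) for YAP and TAZ together and 3 were labelled wild-type (WT). YAP and TAZ, encoded by Yap1 and Wwtr1, are co-activators that work through TEAD transcription factors. The labels state neither the age or sex of the mice nor what drives the deletion, which part of each gene is deleted or whether nerves were pooled. Bulk nerve cannot tell fewer cells of a type from less RNA per cell.

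Gene counts per library ran from 24651262 to 32003497 in cKO and from 41270894 to 47044158 in WT, so every WT library was the deeper. Levels are counts per 1e+06 counts (CPM), with library sizes scaled by edgeR's TMM factors. Yap1 stood at 102.6 to 108.8 CPM in cKO and at 120.4 to 123.7 CPM in WT (log2 difference -0.20 ± 0.08, SE with 3 libraries per group; edgeR adjusted p = 0.145), and Wwtr1 at 337.4 to 372.0 and 253.8 to 284.2 CPM (0.40 ± 0.09; edgeR adjusted p = 0.0208). Whole-gene counts of this kind do not check the labels where only part of a gene is deleted in some cells, so directions rest on the labels. Of 14789 genes tested, 1618 passed an edgeR adjusted p of 0.05, 912 lower and 706 higher in cKO. Without cKO 2, cKO 3 or WT 2 the total was 1072, 735 or 984. With total counts as the only scaling it was 1879, 606 lower and 1273 higher, and the median over all genes of the log2 fold change moved from 0.02 to 0.15. Skeletal muscle transcripts separated the groups. The summed level of 15 muscle markers was 4822, 10506 and 6330 CPM in cKO 1, 2 and 3. In WT 1, 2 and 3 it was 1835, 476.5 and 1764 CPM. A covariate for the muscle level therefore largely follows genotype, and a call lost with it cannot be told from a loss of power.

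All 3 genes had promoter windows in the RefSeq sequences of GRCm38.p6, the same assembly as mm10. The windows of Mme and Ece1 that lie outside every annotated exon of their gene are shown because these genes differ so much in their pattern across the libraries. Mme lies on chromosome 3 from 63241537 to 63386030 on the plus strand, and its window covers the 250 bases before a RefSeq start, chr3:63294961-63295210. Ece1 lies on chromosome 4 from 137862237 to 137965229 on the plus strand, with its window at chr4:137861987-137862236. No capitals appear because neither holds the motif searched.
Mme: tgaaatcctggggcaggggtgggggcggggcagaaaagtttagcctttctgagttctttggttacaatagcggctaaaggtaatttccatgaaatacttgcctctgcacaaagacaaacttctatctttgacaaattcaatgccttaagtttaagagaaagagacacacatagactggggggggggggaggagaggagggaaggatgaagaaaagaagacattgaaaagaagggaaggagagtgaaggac
Ece1: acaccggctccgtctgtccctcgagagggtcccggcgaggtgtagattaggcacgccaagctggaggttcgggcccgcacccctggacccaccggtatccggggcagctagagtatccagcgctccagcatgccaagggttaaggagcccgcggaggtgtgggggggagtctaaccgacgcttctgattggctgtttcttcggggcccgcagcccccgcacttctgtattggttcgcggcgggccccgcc

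The Mme window had a GC content of 45.6% and 2 CpG dinucleotides, and the Ece1 window had 66.8% and 22. These are unlike kinds of start, as the Mme window lies inside the annotated gene and the Ece1 window directly before its gene. The other Ece1 windows, which overlap annotated exons of Ece1, had 69.2%, 63.6% and 53.2% GC with 23, 14 and 5 CpG. Mme has 2 further starts downstream, whose windows had 73.2% and 73.6% GC with 27 CpG each and overlap annotated exons of other Mme transcripts. The motif searched on both strands was GGAATG, the core bound by TEAD factors, with its reverse complement CATTCC, which are 1 motif read from either strand. It occurred once in the 8 windows of the 3 genes, in the Mme window from 63295622 to 63295871, with its first base 232 bases before the start. That match is shown with 12 bases on each side, at chr3:63295628-63295657 on the plus strand, and the capitals mark the motif.
Mme motif: gtgagggtccaaGGAATGcgggcttcccgg
The motif occurred in 12.64% of all 32851 windows of the same length and in at least 1 window of 13.07% of the 11152 tested genes that had one. A match of this length is a description of the letters, and binding was not measured.

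Mme, the neprilysin gene, was present at a high level in WT nerve and at 9.59% of it in cKO nerve. It stood at 364.6, 375.4 and 640.2 CPM in WT 1, 2 and 3 and at 22.3, 60.6 and 49.5 CPM in cKO 1, 2 and 3. The groups did not overlap, and the lowest WT library was 6.02-fold above the highest cKO library. Groups without overlap occurred for 31.1% of all tested genes, 15.8% with cKO as the lower. Within WT the third library was the high one, and within cKO the first was the low one. Group means were 460.1 ± 156.1 CPM in WT and 44.1 ± 19.7 CPM in cKO (SD, n = 3), a log2 fold change of -3.38 ± 0.37 (SE) or a 10.4-fold lower level. Among the 10271 tested genes whose mean log2 CPM reached 3, this was the lowest log2 fold change, and it ranked 12 from the lowest among all 14789. By level in WT Mme ranked 294 from the highest of all tested genes, and by level in cKO it ranked 4644.

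Ece1 overlapped between the groups. It stood at 126.7, 122.0 and 120.5 CPM in WT 1, 2 and 3 and at 118.7, 142.9 and 136.3 CPM in cKO 1, 2 and 3. The cKO libraries lay on both sides of the WT ones, with cKO 1 below all 3. Means were 123.1 ± 3.20 CPM in WT and 132.6 ± 12.5 CPM in cKO, or 0.11 ± 0.09 (SE) as log2 fold change. That value moved to 0.23 with total counts as the only scaling and to -0.03 ± 0.19 with the muscle level as a covariate. Ece1 also varied less between libraries of a group than Mme, its highest WT library being 1.05-fold above its lowest and its highest cKO library 1.20-fold. For Mme those ratios were 1.76 in WT and 2.72 in cKO.

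Ecel1 was at or near 0 throughout. Its raw counts were 0 in WT 1, 2 and 3 and 0, 1 and 3 in cKO 1, 2 and 3. A count of 0 still allows 3 reads, a level of up to 0.0649 CPM in WT 1, 0.0750 in WT 2 and 0.0756 in WT 3, for counting error only. Of 9 tested genes that nerve injury switches on, 1 (Atf3, log2 fold change -0.99 ± 0.16, edgeR adjusted p = 0.00484) was called lower and 8 did not pass, beside 10.9% of all tested genes called in either direction. The median of the 9 was 0.47, and 2 of them were negative. Ecel1 did not reach the filter on low counts, and no fold change is given because both groups lie at or under 3 counts in each library. Of the 3 genes, 2 were therefore tested in the fit of all genes, and 1, Mme, was past the threshold on the lower side, where 6.17% of all tested genes were. Since the members were picked on this contrast, nothing is read from that count.

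**Figure D1:**
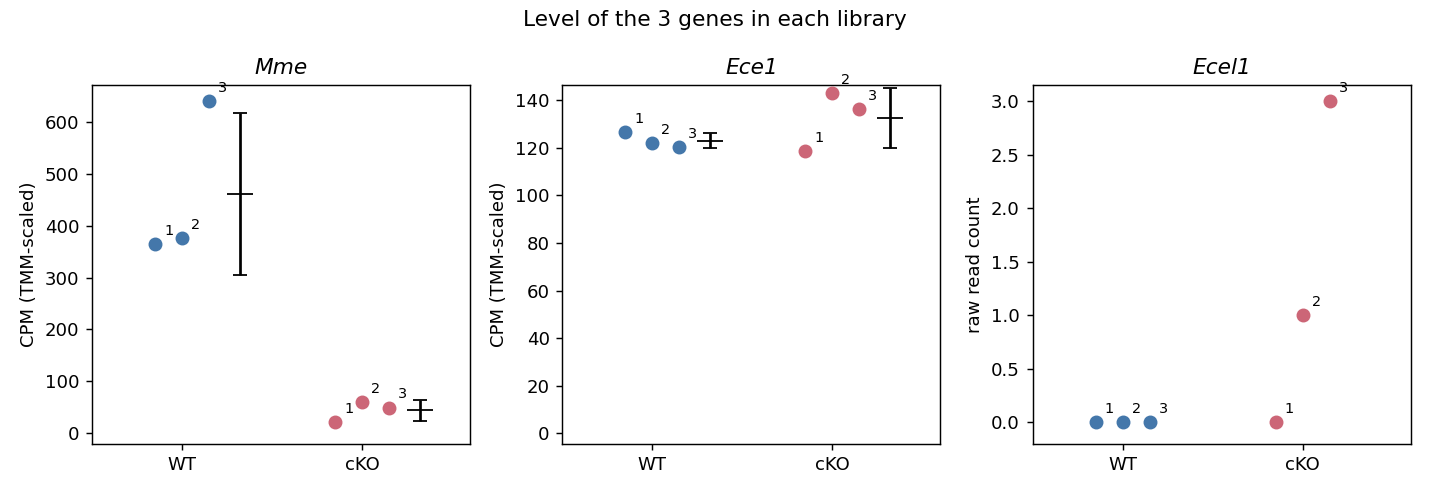
Level of Mme and Ece1 in CPM and raw read count of Ecel1 (vertical axes) in each WT and cKO library (horizontal axis); points are libraries with their replicate number, and black bars are the mean ± SD of 3 libraries. Mme lies between 364.6 and 640.2 CPM in WT and between 22.3 and 60.6 CPM in cKO, Ece1 overlaps between the groups, and Ecel1 has at most 3 reads.

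The spread of Mme among libraries of a group went far beyond read sampling. The chi-square of its counts against equal levels was 2190 per degree of freedom in WT and 276 in cKO, where counting error alone gives a value near 1. For Ece1 it was 3.63 in WT and 36.2 in cKO. The 2.72-fold range of Mme within cKO is thus larger than counting error at these depths allows, and what else differs between those libraries was not tested.

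Per length of exon, the order of the family differed between the genotypes. In WT, Mme led with 39.9 ± 13.5 CPM per kilobase (kb) of exon, followed by Ece1 with 23.2 ± 0.604, and the lowest Mme library (31.6) lay above the highest Ece1 library (23.9). In cKO, Ece1 led with 25.0 ± 2.36 CPM per kb and Mme followed with 3.82 ± 1.71, again without overlap. The ratio of Mme to Ece1 per kb was 1.32, 1.41 and 2.44 in WT 1, 2 and 3 and 0.0861, 0.195 and 0.167 in cKO 1, 2 and 3. Exon length was taken over all annotated transcripts of a gene, 11542 bases for Mme and 5300 for Ece1, so a library that uses shorter transcripts is understated.

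The other family members were far lower per kb than Ece1. Ece2, a relative of Ece1 found mainly in neural tissue, stood at 1.47 ± 0.0585 CPM per kb in WT and 1.99 ± 0.136 in cKO, Kel, which encodes the Kell blood group protein, at 0.192 ± 0.127 and 0.431 ± 0.0825, and Phex, a peptidase of bone that acts in phosphate balance, at 0.0445 ± 0.0279 and 0.0698 ± 0.0692. In cKO, Ece2 came next after Mme, and the libraries of these neighbours overlapped, with Ece2 above Mme in cKO 1 (2.14 and 1.93 CPM per kb). Kel and Phex overlapped in WT, where the highest Phex library (0.0681) lay above the lowest Kel library (0.0545). Mmel1, the nearest relative of Mme, had at most 6 reads in a library. Of the 4 relatives, 3 were tested and 0 passed the edgeR threshold, with 1 (Ece2) at an unadjusted p under 0.05. DESeq2 and limma-voom also called 0. Ece2 did not overlap between the groups, at 7.21 to 7.80 CPM in WT and 9.55 to 10.9 CPM in cKO (log2 fold change 0.43 ± 0.14, edgeR adjusted p = 0.0892), as was the case on the higher side for 15.3% of all tested genes. It shares exons with an annotated gene on the same strand, so its reads may come from either, and it was called higher with total counts as the only scaling.

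**Figure D2:**
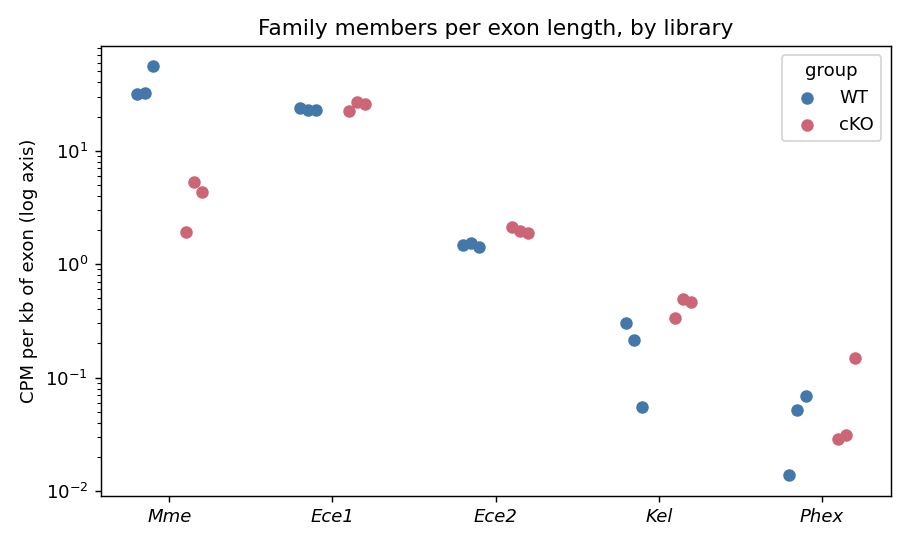
CPM per kb of exon (vertical log axis) for 5 family members in each WT (blue) and cKO (red) library; each point is 1 library, and Ecel1 and Mmel1 are left out because they have libraries at 0. Mme lies above Ece1 in every WT library and below it in every cKO library, Kel and Phex lie below both in all 6, and Ece2 lies below Ece1 in all 6 and below Mme in all but cKO 1.

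Mme ranked the libraries as the myelin genes did. The summed level of 12 genes of myelinating Schwann cells was 83639, 85128 and 118134 CPM in WT 1, 2 and 3 and 21968, 35075 and 28190 CPM in cKO 1, 2 and 3. Ordered from low to high, the 6 libraries stood in the same order for Mme and for this myelin sum, from cKO 1, cKO 3 and cKO 2 to WT 1, WT 2 and WT 3. Both separate the groups, and Mme was chosen with its difference known, so only the order within each group was free. Of those 12 genes 11 passed the edgeR threshold as lower, beside 6.17% of all tested genes. The median log2 fold change of the 12 was -1.69, beside 0.02 for all tested genes. Per 1000 CPM of the myelin sum, Mme came to 4.36, 4.41 and 5.42 in WT and to 1.01, 1.73 and 1.76 in cKO, 3.16-fold lower by the means and without overlap. The sum of 8 genes of the Schwann cell lineage as a whole, which overlaps the myelin list, was 2986 to 3493 CPM in WT and 2774 to 2894 CPM in cKO. This lineage sum put the 6 libraries in that same order too. Its groups did not overlap, so here again only the order within each group was free. Per 1000 CPM of that sum, Mme was 122.1, 117.8 and 183.3 in WT and 8.02, 20.9 and 17.5 in cKO, 9.11-fold lower.

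Genes of other cell types in the nerve did not show a difference of the size of Mme's. The summed markers of nerve fibroblasts lay between 22673 and 30627 CPM in WT and between 26176 and 28115 CPM in cKO, and those of the perineurium between 343.7 and 460.9 and between 331.7 and 360.5 CPM. Endothelial markers lay between 470.0 and 740.0 CPM in WT and between 629.3 and 735.2 CPM in cKO. In each of these 3 lists the groups overlapped. Lymphocyte markers were low but separated, at 3.87 to 4.58 CPM in WT and 10.96 to 19.01 CPM in cKO. Mast cell markers came to 79.4 to 101.6 and 115.3 to 233.9 CPM, while those of macrophages (431.3 to 602.1 and 539.4 to 582.6 CPM), adipocytes (159.0 to 683.9 and 476.1 to 642.4 CPM) and neurons (47.0 to 51.1 and 46.6 to 71.5 CPM) overlapped. The part of these cells in the level of Mme was not tested. Muscle transcripts were higher in every cKO library, and with their level as a covariate the log2 fold change of Mme was -4.35 ± 0.59. Leaving out any 1 library gave values between -3.68 (without cKO 2) and -3.07 (without cKO 1).

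**Figure D3:**
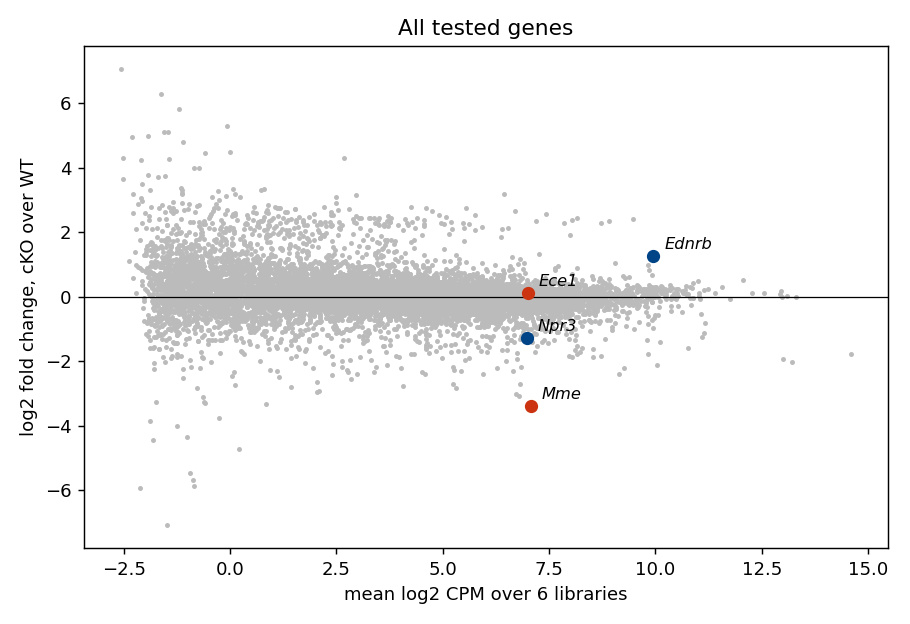
Log2 fold change of cKO over WT (vertical axis) against mean log2 CPM over 6 libraries (horizontal axis) for the 14789 tested genes; grey points are genes, with Mme and Ece1 in red and Ednrb and Npr3 in blue. Mme, at -3.38, lies below every other gene whose mean log2 CPM reached 3, and Ece1, at 0.11, lies close to the line of no difference.

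The genes whose profile over the 6 libraries came nearest to that of Mme were Ccdc42, Lrtm2, Vat1l, Drp2 and Sema5a. Nearness was the root mean square difference of log2 CPM after centring each gene on its own mean, over 11545 genes whose mean log2 CPM reached 2, and it ran from 0.27 for Ccdc42 to 0.41 for Sema5a. Vat1l, which encodes a relative of a synaptic vesicle protein, stood at 263.2, 328.9 and 399.7 CPM in WT 1, 2 and 3 and at 26.3, 53.6 and 38.8 CPM in cKO 1, 2 and 3. Drp2, a partner of periaxin and dystroglycan at the myelin sheath, stood at 248.6, 237.1 and 415.8 CPM in WT and at 28.1, 62.8 and 48.0 CPM in cKO. Like Mme, these genes were lowest in cKO 1 and highest in WT 3, which their choice by nearness over these same libraries largely fixes. Ccdc42 and Lrtm2 were much less abundant, with Ccdc42 at 12.4 ± 3.08 CPM in WT and 1.66 ± 0.978 CPM in cKO and Lrtm2 between 10.1 and 14.3 CPM in WT and between 0.573 and 2.41 CPM in cKO. Sema5a, a semaphorin that guides axons, had means of 307.0 ± 78.1 CPM in WT and 37.9 ± 6.08 CPM in cKO.

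For Ece1 the nearest profiles were those of Rps6ka1, Supt6, Tcea2, Csk and Nfrkb, with differences of 0.014 to 0.031. Its own profile spans so little that many genes with flat profiles come near. Rps6ka1, a kinase downstream of ERK, stood at 37.4, 35.9 and 34.8 CPM in WT and at 34.4, 41.4 and 39.3 CPM in cKO, so that cKO 2 and cKO 3 were above WT and cKO 1 was not.

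**Figure D4:**
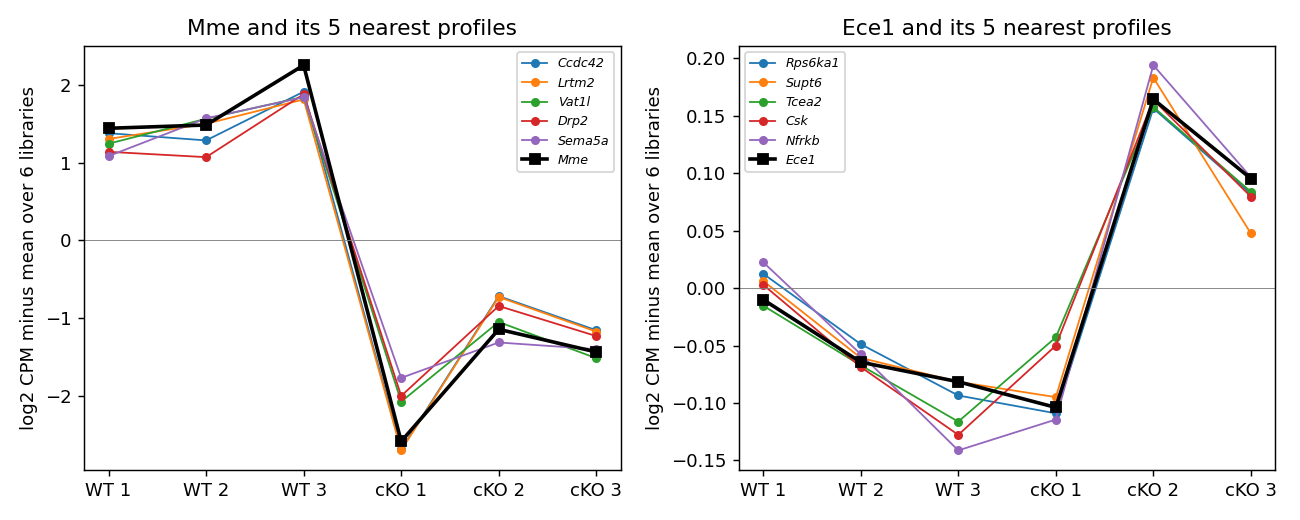
Log2 CPM of each library minus the gene's mean over 6 libraries (vertical axes) for Mme and Ece1 (black squares) and the 5 genes with the nearest profile to each (coloured points). The Mme set drops from WT to cKO with cKO 1 lowest for all 6 genes, whereas the Ece1 set stays within 0.2 of its mean and is highest in cKO 2. The genes were chosen by nearness over these same libraries, so shared shapes are largely given by the choice.

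Neither of the nearest tested genes beside Mme on chromosome 3 passed the test. Dhx36, a helicase gene 734.5 kb before it, had means of 64.2 ± 2.32 CPM in WT and 63.9 ± 3.68 CPM in cKO (log2 fold change -0.01 ± 0.08, edgeR adjusted p = 0.97), and Plch1, 310.2 kb after it, at 0.685 ± 0.241 and 0.510 ± 0.180 CPM (-0.43 ± 0.46, edgeR adjusted p = 0.643). The targeted gene Wwtr1 lies on the same chromosome, 5.67 Mb before Mme. Of the 20 tested genes between them 3 were called lower and 0 higher by edgeR, beside 6.17% and 4.77% of all tested genes. The 3 were named after their values were seen: Ankub1 (log2 fold change -2.19 ± 0.59), Rnf13 (-0.99 ± 0.14) and Arhgef26 (-0.61 ± 0.11). What the targeted allele's neighbourhood contributes to the level of Mme was not tested.

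Both neighbours of Ece1 rose in cKO. Alpl, which encodes tissue-nonspecific alkaline phosphatase and lies 65.9 kb before Ece1, went from 6.64 ± 1.34 to 17.1 ± 3.03 CPM (log2 fold change 1.36 ± 0.20, edgeR adjusted p = 0.0034). Eif4g3, a translation initiation factor 27.8 kb after it, went from 129.1 ± 5.41 to 168.4 ± 14.2 CPM (0.38 ± 0.09, edgeR adjusted p = 0.0276). Of the neighbours of Ecel1 (chromosome 1, 87147655 to 87156521, minus strand), Dis3l2 did not pass (0.03 ± 0.08, edgeR adjusted p = 0.867). Chrnd, 34.1 kb away, encodes the delta subunit of the muscle acetylcholine receptor and rose from 0.141 ± 0.123 to 2.30 ± 0.684 CPM (3.98 ± 0.70, edgeR adjusted p = 0.00835), in the libraries in which muscle transcripts were higher. The part of muscle tissue in that change was not tested.

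In the endothelin system, the receptor changed and the peptides did not pass the test. Endothelins are made from precursors that Ece1's product activates, and they act through the receptors Ednra and Ednrb. Ednrb (chromosome 14, 103814625 to 103844402, minus strand) encodes the B receptor, through which endothelins slow the maturation of Schwann cell precursors in rat. It stood at 711.0, 753.4 and 476.4 CPM in WT 1, 2 and 3 and at 1661, 1363 and 1651 CPM in cKO 1, 2 and 3. Every cKO library was above every WT library, and WT 3 was the lowest of all. Ednrb rose 2.41-fold (log2 1.27 ± 0.17, SE, n = 3 per group, edgeR adjusted p = 0.0029). It was called in every alternative, with values from 1.07 without WT 3 to 1.72 with the muscle covariate.

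That made 1 higher of 4 tested endothelin genes, beside 4.77% of all tested genes, and the list median was 0.43 beside 0.02 for all genes. Edn3, the endothelin 3 precursor, stood at 4.02, 1.70 and 5.67 CPM in WT 1, 2 and 3 and between 5.84 and 6.16 CPM in cKO (0.66 ± 0.37, edgeR adjusted p = 0.316). Edn1 stood at 4.43 ± 2.12 and 5.04 ± 1.22 CPM (0.19 ± 0.36, edgeR adjusted p = 0.814), and the A receptor Ednra at 19.0 ± 2.40 and 21.2 ± 1.30 CPM (0.16 ± 0.13, edgeR adjusted p = 0.492). Edn2 had 1 read in all 6 libraries together. The summed endothelial markers, given above, overlapped between the groups. The 10 markers of mural cells summed to 312.0 to 574.8 CPM in WT and 584.8 to 713.3 CPM in cKO. Of these 10 genes 1, Des, was called higher, beside 4.77% of all tested genes, 9 did not pass, and 2 were negative. Des stood at 54.7, 20.7 and 53.4 CPM in WT 1, 2 and 3 and at 145.0, 232.6 and 177.9 CPM in cKO 1, 2 and 3. It is thus a large part of the separation of that sum. The part of mural cells in the level of Ednrb was not tested.

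Among 16 precursors of peptides that neprilysin is known to cut, 8 were tested, 1 rose and 7 did not pass, with a median log2 fold change of 0.19. Of all tested genes 4.77% were called higher and 10.9% in either direction, so 1 of 8 is no result about the list. Penk, the precursor of the enkephalins, rose 1.92-fold (log2 0.94 ± 0.22, edgeR adjusted p = 0.0258). It went from 15.5, 13.9 and 15.8 CPM in WT 1, 2 and 3 to 38.4, 19.2 and 29.2 CPM in cKO 1, 2 and 3. Its groups did not overlap, but cKO 2 was close to WT. The call was lost without cKO 1, cKO 3, WT 1 or WT 2 (edgeR adjusted p = 0.0634, 0.102, 0.0822 and 0.0884) and with the muscle covariate. Agt, angiotensinogen, stood at 5.39 ± 1.48 and 8.20 ± 0.982 CPM (edgeR adjusted p = 0.137), and App, the amyloid precursor and by far the most abundant of the list, at 781.4 ± 66.8 and 698.0 ± 41.9 CPM (log2 -0.16 ± 0.10, edgeR adjusted p = 0.372). Grp, gastrin-releasing peptide, was low, at 0.852 ± 0.263 and 0.528 ± 0.0603 CPM (edgeR adjusted p = 0.355). The other 8 precursors, Tac1 of substance P among them, did not reach the filter on low counts.

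Of 21 receptors and receptor partners of such peptides, 12 were tested, 1 fell and 11 did not pass, with a median log2 fold change of 0.18. Of all tested genes 6.17% were called lower, and a count of 1 of 12 is near that share. Npr3 is the clearance receptor that takes natriuretic peptides up and removes them. It stood at 189.9, 224.8 and 176.9 CPM in WT 1, 2 and 3 and at 75.8, 88.6 and 78.3 CPM in cKO 1, 2 and 3. The lowest WT library was above the highest cKO library, and Npr3 fell 2.44-fold (log2 -1.29 ± 0.11, SE, n = 3 per group, edgeR adjusted p = 0.000441). It was called in each fit that left out 1 library, but not with the muscle covariate (-1.10 ± 0.22, edgeR adjusted p = 0.0614). Among the signalling receptors of natriuretic peptides, Npr1 stood at 13.3 ± 4.34 and 20.7 ± 1.52 CPM (0.63 ± 0.21, edgeR adjusted p = 0.0944). Ramp1 and Ramp3, partners of the calcitonin-like receptor, had log2 fold changes of 1.06 ± 0.37 and -0.72 ± 0.28 (edgeR adjusted p = 0.114 and 0.153). Without WT 3, 3 receptors of the list were called higher, beside 1075 of 14941 tested genes. DESeq2 called 2 higher with all libraries, beside 997 of 14789 genes.

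Other peptidases that act on small peptides moved in both directions. All 21 of the list were tested, 1 rose, 1 fell and 19 did not pass, and the median log2 fold change was 0.10. Cpd, carboxypeptidase D of the secretory pathway, fell 1.49-fold, from 197.7, 227.4 and 254.6 CPM in WT 1, 2 and 3 to 148.4, 154.6 and 153.4 CPM in cKO 1, 2 and 3 (log2 -0.57 ± 0.10, edgeR adjusted p = 0.00913; 0.0503 without cKO 3 and 0.391 with the muscle covariate). Trhde, an ectoenzyme that degrades thyrotropin-releasing hormone, rose from a very low level, with 4, 3 and 6 reads in WT and 17, 18 and 16 reads in cKO (log2 2.42 ± 0.53, edgeR adjusted p = 0.0205). Its call was lost without cKO 2, cKO 3, WT 1 or WT 2 (edgeR adjusted p = 0.0742, 0.0663, 0.0857 and 0.0842), with the muscle covariate and with the replicate number as a block. Cpm, carboxypeptidase M of the cell surface, and Erap1, an aminopeptidase that trims peptides for antigen presentation, had log2 fold changes of 0.76 ± 0.23 and 0.52 ± 0.17 (edgeR adjusted p = 0.0766 and 0.0927). Called genes made up 10.9% of all tested genes, and 2 of 21 is near that share.

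The proprotein convertases cut precursors, big endothelin's own precursor among them, before the surface peptidases act. Of 7 in the list 6 were tested, 1 fell, 1 rose and 4 did not pass, with a median log2 fold change of 0.32, beside 6.17% of all tested genes called lower and 4.77% called higher. Pcsk5 fell 1.40-fold, from 42.3, 39.9 and 50.9 CPM in WT to 29.7, 30.8 and 34.5 CPM in cKO (log2 -0.49 ± 0.12, edgeR adjusted p = 0.0292), a call lost without cKO 1, cKO 2 or cKO 3 (edgeR adjusted p = 0.0834, 0.0961 and 0.0646). Pcsk4, known from germ cells, rose from 0.856 ± 0.283 to 2.16 ± 0.232 CPM (1.33 ± 0.34, edgeR adjusted p = 0.0394), a call that held without WT 3 and in none of the other fits that left out 1 library (edgeR adjusted p from 0.0733 to 0.124). Both calls were also lost with the muscle covariate, that of Pcsk5 with total counts only (edgeR adjusted p = 0.0718) and that of Pcsk4 with the replicate block. Pcsk2 and Pcsk6 had log2 fold changes of 1.004 ± 0.546 and 0.47 ± 0.28 (edgeR adjusted p = 0.305 and 0.36).

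**Figure D5:**
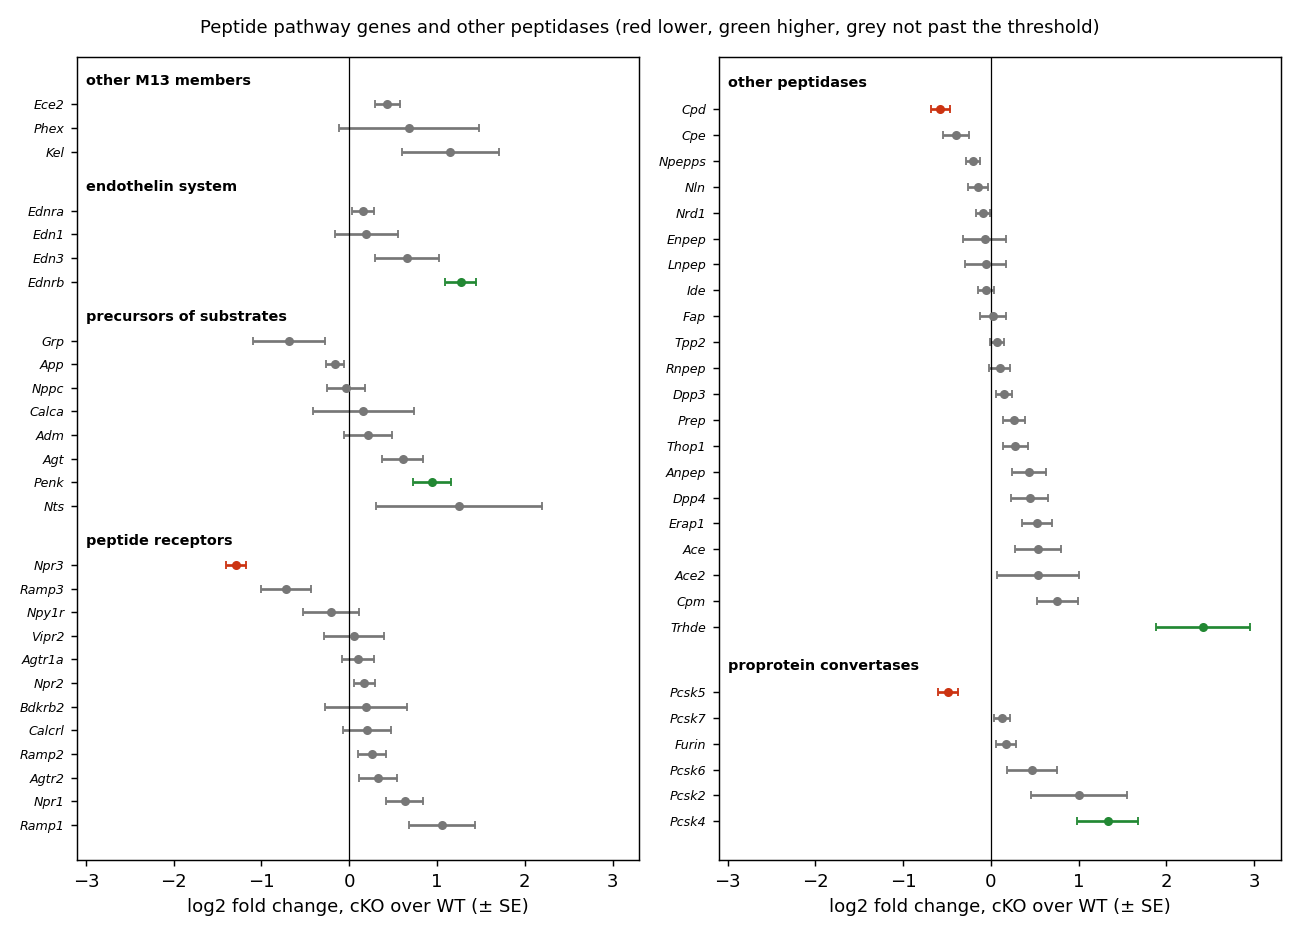
Log2 fold change of cKO over WT with its SE (horizontal axes) for every tested gene of 6 lists (vertical axes); red marks genes called lower, green genes called higher and grey genes not past the edgeR threshold. Npr3, Cpd and Pcsk5 are the genes called lower and Ednrb, Penk, Trhde and Pcsk4 those called higher, all smaller in size than the -3.38 of Mme.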

How the data were processed

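What the authors deposited are raw counts of reads for each gene symbol, with a separate table per library. Per the submitters' processing notes, TopHat2 2.0.13, HTSeq and the mm10 build were used, and the annotation and strand setting are not stated. Closing lines of HTSeq stayed out of library sizes (reads in no gene: 12.07% to 14.26% of all counts).

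edgeR 4.0.16 in R 4.3.3 was run on all genes (quasi-likelihood F test, group as the only term, filterByExpr with a minimum count of 10, TMM scaling), with Benjamini-Hochberg adjustment over the 14789 tested genes. Log2 fold changes are cKO over WT, and each SE was derived from the F statistic. The members, gene lists and alternatives were chosen with earlier results of these data known. Named were the 3 members, the called genes of each list, others in order of p up to 4 per list, the 5 nearest profiles and the nearest tested neighbours. DESeq2 1.42.0, limma 3.58.1 (voom), other scalings and filters, a replicate block, a muscle covariate and leaving out each library were alternatives. Positions and exon lengths came from GENCODE M21. In simulated counts for this comparison with 14803 genes tested, calls were made for 63 of 66 genes at a log2 change of 2, 47 of 67 at 1 and 8 of 67 at 0.5, and for 5 of 14605 unchanged genes. The p-values measure only the spread between these libraries.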

Additional observations from a re-analysis of the deposited data

How the results depend on the processing

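Mme stayed lower in all 15 alternatives, from -4.35 with the muscle covariate to -3.07 without cKO 1, and the fits that left out 1 library gave -3.68 to -3.07. Ece1 moved to 0.23 with total counts only and to -0.029 with the muscle covariate, and lay between 0.05 and 0.18 with 1 library left out. The muscle covariate left 148 called genes of 1618, with 85.8% of them lower beside 56.4%. It left 0 called members among the precursors, receptors, other peptidases and convertases. That fit had 1 more term and the same 6 libraries, and the muscle level separates the genotypes. Total counts only called 1879 of 14789 tested genes (32.3% lower). Among them were 1 of the other family members, 2 receptors, 4 other peptidases and 1 convertase. DESeq2 called 2254 of 14789 genes, with 3 receptors and 4 other peptidases among them. The filter of 50 counts in 3 libraries called 1512 of 13045 genes, with 1 other peptidase among them. With 1 library left out the called genes numbered 735 to 2195, the precursors 0 to 2, the receptors 1 to 4, the other peptidases 0 to 5, the convertases 0 to 3, the endothelin genes 1 and the other family members 0. The cause of these moves was not tested. With the replicate number as a block, 1104 genes, 1 other peptidase and 1 convertase were called, and Mme stood at -3.45. Replicate numbers did not pair the libraries: same-numbered deviations correlated at -0.21, -0.12 and 0.07 across genes. Depth limits Ecel1, Mmel1 and Edn2, which no fold change can describe here.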
